A study of Mus musculus with 6 samples.

Results

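The arrays carried 16251 probes aimed at long intergenic noncoding RNAs (lincRNAs), which made up 29.2% of the 55681 gene probes. They were chosen by their probe names, which begin with A_30_P, a rule that uses no measured value. Of these probes, 16181 were named in the deposited files by a stretch of the mm9 mouse genome and a letter F or R for the strand, over 3540 regions. A further 57 probes were named by a word for 12 known transcripts, and 13 probes covered 3 regions with no strand letter. The 3555 regions and transcripts gave 4622 region and strand combinations, here called region-strands. Regions ranged from 62 to 7128487 bases with a median of 7316 bases, and many overlapped: the 4607 region-strands with a strand letter merged into 3362 separate loci. Most region-strands had 3 probes (1811 of them) or 5 probes (985), and the largest number was 10. The region names were the identity that the files gave, so no gene name was attached to them here.

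RNA came from live CD45- cells sorted from tumors that grew in the mammary gland of C57BL/6 mice from transplanted MMTV-PyMT late carcinoma cells. CD45 marks leukocytes, so the sort kept tumor cells together with other cells without CD45, such as fibroblasts and endothelium. Whether those came from the host or the donor tumor is not known here. Donor tumors were RANK+/+ or RANK-/-, all with the polyomavirus middle T oncogene driven by the MMTV promoter, and RANK, the receptor for RANK ligand encoded by Tnfrsf11a, was lacking from the germline of the RANK-/- donors while the hosts were not described as lacking it. Each of 6 two-color arrays received both genotypes. A RANK-/- RNA and a RANK+/+ RNA formed a pair, each pair was run on technical arrays A and B, and the comparison has n = 3 pairs. RANK-/- RNA carried Cy5 in pair 1 and Cy3 in pairs 2 and 3. Ratios are given as log2 of RANK-/- over RANK+/+, averaged over arrays A and B. The labels do not say whether the pairs came from separate tumors, so tests over pairs measure only the spread between these RNAs.

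A few facts on the series bear on every value below. Tnfrsf11a had log2 ratios of 2.03, 1.15 and 1.76 (mean 1.65, SE 0.22, limma adjusted p = 1.00), so the RNA labeled RANK-/- held more of it in each pair. This goes against the label, and whether its probe lies in the deleted part is not known here. All directions below therefore refer to the channels labeled RANK-/- and RANK+/+. All 7 epithelial markers were measured, with median log2 levels of 12.7 to 14.4 over the 6 RNAs. Of 6 fibroblast markers, 3 were higher in RANK-/- in all 3 pairs, where 9.99% of all tested probes were, and none passed the adjusted test. Dcn and Col3a1 were lower in pair 1, at -0.71 and -0.08, and Pdgfrb in pair 2, at -1.03. The list had median log2 ratios of 0.38, 0.57 and 1.97 and median log2 levels of 14.6 to 15.1 in RANK-/- and 12.7 to 14.5 in RANK+/+. Of 13 leukocyte markers 7 were above the filter, with median log2 levels of 9.15 to 9.84. Ptprc, which encodes CD45, lay at 6.08 to 7.38, Itgam, an integrin of myeloid cells, at 12.29 to 12.85, and S100a8, a protein of neutrophils, at 10.29 to 14.28. The part of other cell types in the lincRNA ratios was not tested, and fewer cells of a type cannot be told apart from less RNA per cell in these bulk samples.

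LincRNAs are transcripts from stretches between protein-coding genes that do not encode a protein, and they are often spliced and polyadenylated like messenger RNAs but usually present at low levels and in few cell types. Some act in the nucleus: XIST coats and silences an X chromosome, NEAT1 builds the paraspeckle, and NEAT2, better known as Malat1, lies in nuclear speckles. Others are known from the mammary gland or from imprinting, such as PINC, a pregnancy-induced noncoding RNA that is retained in the involuted gland, and H19, which is expressed from the maternal allele.

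Of the 12 transcripts named by a word, 6 had a promoter in the RefSeq table (mouse build GRCm38.p6), which gives 250 bases before and 50 bases after the start. Those of PINC, NEAT2 and XIST are shown since these RNAs had some of the largest pair to pair differences below, and TUG1, which varied less, is shown beside them. They lie at chr1:73407520-73407819, chr19:5802623-5802922, chrX:103483184-103483483 and chr11:3648765-3649064, in that order, all on the minus strand, and are written 5′ to 3′ along the transcript. Capitals mark matches on either strand to TATAAA, the TATA box, or to TTCNNNGAA, the core bound by STAT proteins, and the E-box CACGTG was searched too.
PINC: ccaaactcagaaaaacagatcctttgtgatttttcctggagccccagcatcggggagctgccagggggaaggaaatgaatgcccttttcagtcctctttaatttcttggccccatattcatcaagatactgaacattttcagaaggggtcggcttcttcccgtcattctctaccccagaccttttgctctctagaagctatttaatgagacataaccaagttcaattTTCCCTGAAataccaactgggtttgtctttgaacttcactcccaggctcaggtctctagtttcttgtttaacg
NEAT2: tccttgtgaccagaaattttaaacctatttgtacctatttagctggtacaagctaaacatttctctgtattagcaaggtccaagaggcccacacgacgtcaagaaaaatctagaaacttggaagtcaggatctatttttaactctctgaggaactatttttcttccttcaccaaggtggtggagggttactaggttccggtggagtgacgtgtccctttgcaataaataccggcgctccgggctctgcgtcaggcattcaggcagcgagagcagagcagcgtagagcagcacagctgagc
XIST: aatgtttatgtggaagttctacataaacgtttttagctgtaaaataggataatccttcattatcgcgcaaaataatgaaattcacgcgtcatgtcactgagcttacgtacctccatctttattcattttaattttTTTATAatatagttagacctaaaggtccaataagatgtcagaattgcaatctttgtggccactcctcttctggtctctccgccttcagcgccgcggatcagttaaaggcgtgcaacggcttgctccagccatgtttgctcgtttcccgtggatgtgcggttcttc
TUG1: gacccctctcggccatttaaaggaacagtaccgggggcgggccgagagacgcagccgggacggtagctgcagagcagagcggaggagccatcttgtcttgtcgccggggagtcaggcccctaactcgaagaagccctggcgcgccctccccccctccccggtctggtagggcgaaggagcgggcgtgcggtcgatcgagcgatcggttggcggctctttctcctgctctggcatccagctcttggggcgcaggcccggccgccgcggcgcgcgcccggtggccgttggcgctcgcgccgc
The PINC promoter held 1 TTCNNNGAA match, a motif present in 8.30% of the 32851 promoters of the table. The XIST promoter held 1 TATAAA match on the opposite strand, a motif present in 13.6% of them. No letters of CACGTG, which 7.15% of promoters held, were found in the 4 sequences, and those of NEAT2 and TUG1 held none of the 3 motifs. They also differed in base composition, with 4 CG dinucleotides for PINC, 10 for NEAT2, 15 for XIST and 37 for TUG1, beside a median of 7 over all promoters. A match is a description of the letters and not a bound site.

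The first question was how much of this noncoding part of the array gave signal. LincRNA probes were well above background, the call of the scanner software, less often than the other 39430 gene probes in every RNA. In the RANK-/- RNAs the share was 31.9%, 38.3% and 35.6% for pairs 1, 2 and 3, against 60.5%, 65.0% and 62.6% of the other probes. In the RANK+/+ RNAs it was 34.5%, 39.4% and 36.9%, against 63.7%, 64.8% and 63.3%. The mean was 36.1% ± 2.71 for lincRNA probes and 63.3% ± 1.64 for the others (SD, n = 6 RNAs), a difference of -27.2 percentage points ± 1.41 that was below 0 in 6 of 6 RNAs (exact two-sided sign-flip permutation test, p = 0.0312, the smallest that 6 RNAs allow). Both RNAs of a pair shared arrays, and with their values averaged the exact permutation test over 3 pairs gave p = 0.25, the smallest it allows. The lowest share of the other probes stood above the highest share of the lincRNA probes. With the more lenient call of a positive and significant signal the difference was -14.2 percentage points.

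Over all channels, 7331 lincRNA probes (45.1%) were well above background in none, against 25.5% of the other probes, and 4096 were so in all 12 channels. The filter for ratios asked that arrays A and B both gave this call in at least 2 pairs for 1 genotype, and 5542 lincRNA probes (34.1%) passed it, against 62.6% of the others. Of these lincRNA probes, 4862 passed through both genotypes, 260 through RANK-/- alone and 420 through RANK+/+ alone. Of the 24689 other kept probes, 444 passed through RANK-/- alone and 787 through RANK+/+ alone. At least 1 probe passed for 2184 of the 3555 regions and transcripts (61.4%), or 2043 of the 3362 loci. Regions with a kept probe had a median length of 10301 bases and those without one of 2883 bases. Regions differ in their number of probes, and any 1 kept probe sufficed. Of regions with probes on both strands 84.2% had a kept probe, against 51.6% of those with probes on 1 strand. The lengths were not adjusted for this. By chromosome, the share of kept probes ran from 25.3% on chromosome 9 and 28.4% on X to 40.7% on chromosome 19 and 42.9% on chromosome 17. Chromosome 18 held 571 of the lincRNA probes, 210 of them kept, which are counted throughout and not named.

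Detected lincRNA probes were also dimmer. Their median log2 intensity was 7.01, 6.59 and 6.67 in the RANK-/- RNAs and 6.70, 6.89 and 7.07 in the RANK+/+ RNAs. That of detected other probes was 9.14, 8.58 and 8.63, and 8.63, 9.0 and 9.38. The difference of -2.07 ± 0.14 (SD, n = 6 RNAs), or 0.238-fold, was below 0 in 6 of 6 RNAs (exact two-sided sign-flip permutation test, p = 0.0312 over 6 RNAs and 0.25 over 3 pairs). It was -0.79 over all gene probes, detected or not, and -3.08 with plain background subtraction. These are medians over sets of probes, and a probe's brightness also depends on its own sequence. Among kept lincRNA probes, 55.6% had a mean log2 intensity under 7 and 4.28% one of 11 or more, against 21.9% and 26.5% of the other kept probes.

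**Figure D1:**
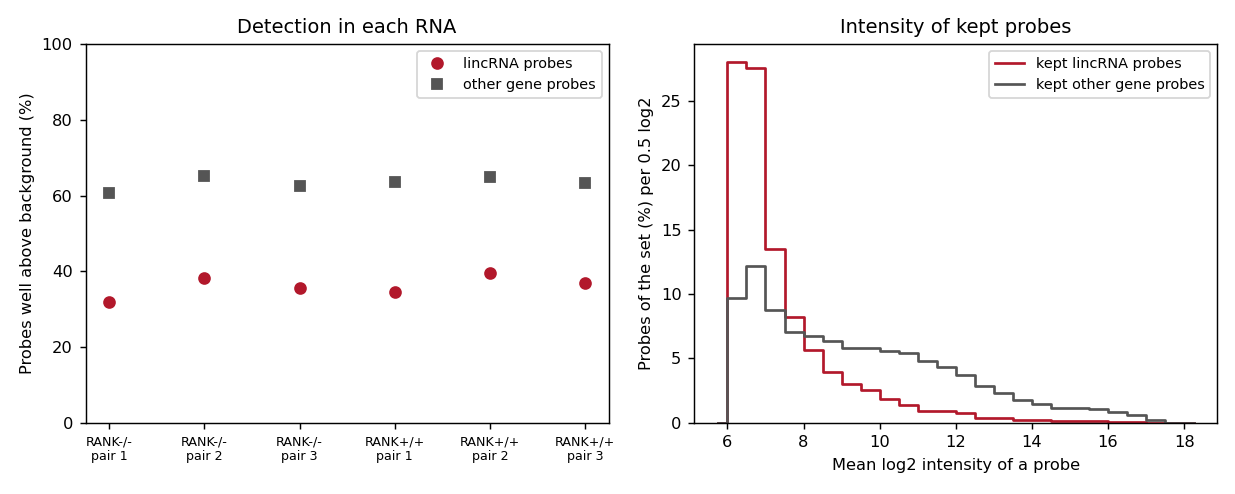
Left: percent of lincRNA probes (red circles) and other gene probes (grey squares) well above background in each of the 6 RNAs, mean of arrays A and B. Right: percent of kept probes in each 0.5 step of mean log2 intensity. LincRNA shares lay between 31.9% and 39.4%, below all values of the other probes, and the kept lincRNA probes gathered under log2 7.

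The 5 region-strands of highest mean intensity are given next. The first was chr19:5801802-5802597 (R), with log2 levels of 18.03, 16.38 and 17.74 in RANK-/- and 16.24, 17.13 and 16.58 in RANK+/+. Its pair ratios were 1.79, -0.74 and 1.16, so pair 2 ran the other way. The other kept probes of this region gave 1.27, -0.51 and 1.43, and 1.34, -0.61 and 1.35. The NEAT2 promoter shown above has nearby coordinates on the same chromosome, but in GRCm38.p6 and not mm9. Whether this region belongs to NEAT2, whose ratios below had the same signs, was not checked. Next came chr11:22681800-22707775 (R) with ratios of 0.14, -0.33 and -0.57, and chr14:78924115-78938125 (F) with 0.31, -0.31 and 0.55. The chr14 values came from a probe at a mean log2 intensity of 16.67, while its other kept probes lay at only 6.23 and 6.54. The last of the 5, chr17:17481706-17482457 (R) and chr17:39982023-39983277 (F), had ratios of 0.60, -0.15 and 0.08 and of -0.11, 0.20 and 0.35. None of these 5 had the same sign in all 3 pairs.

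Where a region had probes on both strands, the strands could be set apart. Of 1067 such regions, 191 had kept probes on the forward strand alone, 227 on the reverse strand alone, 480 on both and 169 on neither. One strand alone thus made up 46.5% of the regions with signal, but only 16% when the lenient call was used. In the 2473 regions with probes on 1 strand, 1275 (51.6%) had a kept probe. The letters F and R were read as forward and reverse strand, which the files do not spell out.

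The main comparison asked whether any lincRNA differed between RANK-/- and RANK+/+ cells. None passed: limma over the 3 pair ratios called 0 of 5542 lincRNA probes at a Benjamini-Hochberg adjusted p under 0.05, and 0% of the 30228 probes tested (lowest adjusted p of a lincRNA probe 1.00). At an unadjusted p under 0.05 there were 98 lincRNA probes (1.77%, 50 higher and 48 lower), beside 2.95% of all probes (1.69% higher and 1.25% lower). Among the models run, limma called lincRNA probes only with the technical arrays taken as 6 separate replicates, 47 of them (0.849%) beside 1.26% of all probes. A random block for the pair gave 0 lincRNA probes and 15 of all probes. The rank product, a test of consistently high or low ranks, called 0 lincRNA probes at a proportion of false predictions (pfp) under 0.05 in either direction, beside 25 of all tested probes (0.0827%). Of these 11 were higher (0.0364%) and 14 lower (0.0463%), and the lowest pfp of a lincRNA probe was 0.254 for higher and 0.276 for lower. No lincRNA probe was at least 2-fold in the same direction in each of 3 pairs, beside 21 of all tested probes (0.0695%), 9 higher (0.0298%) and 12 lower (0.0397%).

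The share with the same sign in all 3 pairs was near that of all probes. LincRNA probes had the same sign in 3 of 3 pairs in 1121 cases (20.2%, 547 higher and 574 lower), beside 19.7% of all tested probes (9.99% higher and 9.67% lower). The median ratio of the lincRNA probes was 0.05, -0.05 and 0.02 in pairs 1, 2 and 3 and 0.00 for the mean, and those of all tested probes lay between -0.01 and 0.01. In single pairs, 1.93%, 0.920% and 2.09% of lincRNA probes were at least 2-fold higher in pairs 1, 2 and 3, beside 3.27%, 2.19% and 4.36% of all tested probes. At least 2-fold lower were 0.902%, 1.32% and 0.956%, beside 2.61%, 2.12% and 2.67%. In all, 377 (6.80%) were past 2-fold in at least 1 pair, against 15% of the other kept probes. This share went with brightness. At a mean log2 intensity under 7, 7 to 9, 9 to 11 and above it was 1.27%, 12.7%, 15.4% and 18.1%. For the other probes it was 4.22%, 18.6%, 19.1% and 16.3%.

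Orders of sign over the pairs are given as a description, with no test. The order higher, lower, higher over pairs 1, 2 and 3 was found in 21.8% of lincRNA probes and 17.2% of the others, and the order lower, higher, lower in 10.1% and 19.2%. Pair 2 ran opposite to pairs 1 and 3, in either order, in 32.0% of lincRNA probes and 36.4% of the others. A sign that followed the dye in all pairs (Cy5 over Cy3) was found in 31.5% and 28.5%. This was more often than a sign that followed the genotype, and not more often than pair 2 running opposite. Whether dye had a part in these shares was not tested. Across kept lincRNA probes the ratios of pairs 1 and 2 correlated at -0.30, pairs 1 and 3 at 0.11 and pairs 2 and 3 at -0.03, as a description over probes that share arrays and are not independent. Ratios of arrays A and B correlated at 0.92 to 0.95 within a pair.

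Spread between pairs was smaller for lincRNA probes as a set, with a median SD of 0.21 on the log2 scale against 0.34 for the other kept probes. The median SD between arrays A and B was 0.08 and 0.06, so the pairs differed more than the technical arrays did. Spread went with brightness: lincRNA probes under a log2 intensity of 7 had a median SD of 0.15, those from 7 to 9 of 0.30, those from 9 to 11 of 0.39 and those above of 0.39. The other probes had 0.19, 0.38, 0.41 and 0.38 in the same bands, so the sets lay closer to each other in the upper bands than in the lower ones. With Agilent's processed signals, which were used without the offset of 50, the medians were 0.48 and 0.48.

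Probes of a region-strand had ratios near each other. For 5797 pairs of kept probes on the same region and strand, ratios correlated at 0.65, 0.68 and 0.78 in pairs 1, 2 and 3, and their median absolute difference was 0.15 in each pair. Different probes of a gene outside the lincRNA set gave 0.63, 0.66 and 0.73 over 5669 pairs of probes. Opposite strands of a region, compared as medians over their probes in 480 regions, correlated at only 0.16, 0.13 and 0.17. Among the brightest lincRNA region-strands, at a mean log2 intensity of 11 or more, the correlation rose to a mean of 0.88, from 0.68 under 7. Of 795 region-strands with at least 3 kept probes, 220 (27.7%) had all probes on the same side of 0 within each pair, and 180 of these changed sides from pair to pair. These values have no p, since probes of a region share their target and regions overlap.

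**Figure D2:**
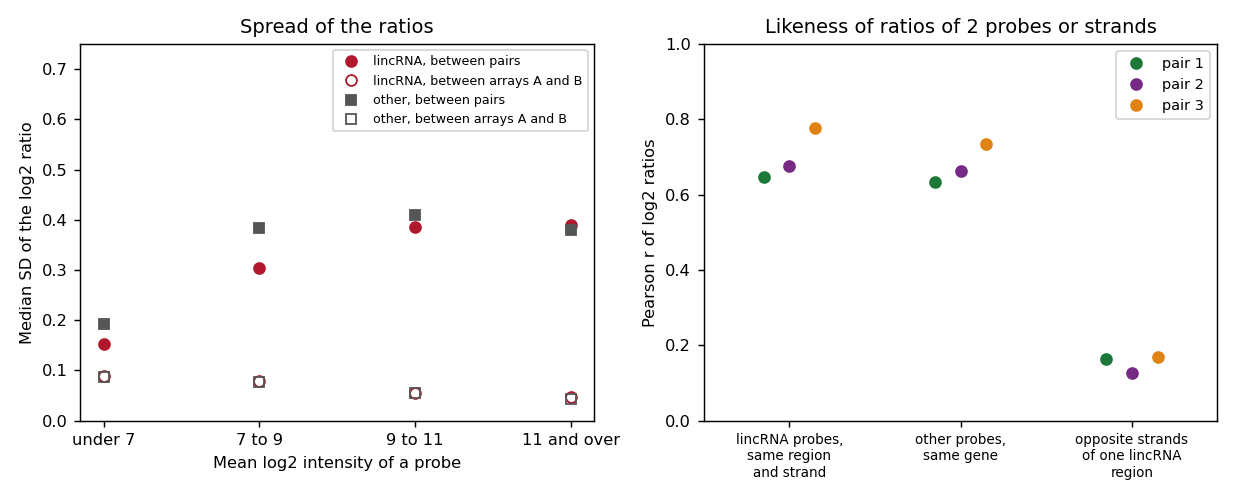
Left: median SD of log2 ratios between the 3 pairs (filled) and between arrays A and B (open) for lincRNA (red) and other kept probes (grey), by mean log2 intensity. Right: Pearson correlation of log2 ratios in each pair for probes of the same lincRNA region and strand, of the same other gene, and for opposite strands of a lincRNA region. Same-strand correlations lay between 0.65 and 0.78, and those of opposite strands between 0.13 and 0.17.

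The transcripts named by a word come next. Of their 57 probes 38 passed the filter, 66.7% against 34.1% of all lincRNA probes. PINC had 5 of 5 probes kept, with median log2 levels of 8.39, 7.73 and 7.97 in RANK-/- and 7.39, 8.28 and 7.17 in RANK+/+. The RANK+/+ RNA of pair 2 was high and the groups overlapped. Its median ratios were 1.13, -0.56 and 0.76, each with all 5 probes on the same side of 0, and the mean of 0.44 ± 0.89 (SD, n = 3 pairs) was smaller than its spread.

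NEAT2, with 3 of 3 probes kept, had levels of 13.63, 12.52 and 13.33 in RANK-/- and 12.57, 13.25 and 12.97 in RANK+/+. Its ratios were 0.95, -0.79 and 0.36 (mean 0.17 ± 0.88, SD, n = 3 pairs). NEAT1 had 5 of 5 probes kept, levels of 13.38, 12.87 and 13.43 against 12.74, 13.70 and 12.95, and ratios of 0.56, -0.69 and 0.56 (mean 0.14 ± 0.72). Both nuclear RNAs thus had the sign order of PINC, higher, lower and higher, and in all 3 transcripts the RANK-/- RNA of pair 2 was the lowest of its genotype while the RANK+/+ RNA of pair 2 was the highest of its own.

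H19 and XIST ran differently. H19 had levels of 8.59, 8.88 and 8.19 in RANK-/- and 10.15, 8.34 and 8.76 in RANK+/+, where the RANK+/+ RNA of pair 1 stood above the other 5 RNAs. Its ratios were -1.56, 0.48 and -0.58 (mean -0.55 ± 1.02, SD, n = 3 pairs), and in pair 1 its 5 probes lay between -1.74 and -1.19. XIST had levels of 11.80, 12.70 and 11.22 in RANK-/- and 12.03, 11.32 and 12.28 in RANK+/+. Its ratios of -0.11, 1.38 and -1.07 gave a mean of 0.07 ± 1.23, the widest spread among the named transcripts, although its 5 probes lay between 1.15 and 1.48 in pair 2 and between -1.16 and -0.93 in pair 3. TSIX, the antisense partner of XIST, had none of 5 probes kept.

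TUG1, a widely expressed nuclear RNA, had 5 of 5 probes kept and small ratios of 0.30, -0.16 and -0.40 (mean -0.09 ± 0.36, SD, n = 3 pairs). BRN1-A had 4 of 4 dim probes kept, with levels of 6.70, 6.34 and 5.99 in RANK-/- and 6.03 to 6.05 in RANK+/+, and ratios of 0.48, 0.27 and -0.02. KCNQ1ot1, the imprinted antisense RNA of Kcnq1, had 3 of 5 probes kept, which disagreed. The probe at a mean log2 intensity of 9.56 gave -0.61, 0.15 and 0.38, and those at 6.52 and 6.35 gave 0.22, -0.24 and -0.01, and 0.12, -0.23 and 0.05. NRON (2 of 5 probes) and HOTAIR (1 of 5 probes) lay between -0.10 and 0.10 in each pair. LincP21 had no kept probe, as had the regions chr3:34856791-34869544 and chr6:52032838-52033444, whose names carry no strand. The third such region, chr17:12941161-12944859, had 5 of 5 probes kept, levels of 8.55, 9.95 and 9.12 against 8.82, 8.58 and 8.69, and ratios of -0.08, 1.30 and 0.43.

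**Figure D3:**
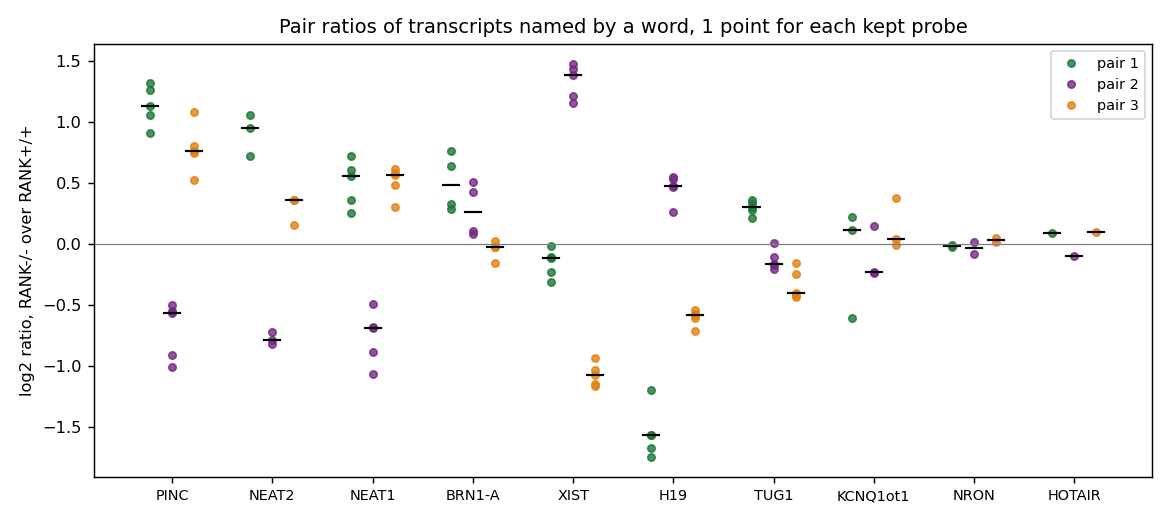
Log2 ratios of RANK-/- over RANK+/+ for each kept probe of the 10 transcripts named by a word that had one, in pairs 1 (green), 2 (purple) and 3 (orange), with the median as a black line. All kept probes of PINC, NEAT2, NEAT1, XIST and H19 lay on the same side of 0 within a pair and changed sides between pairs, while those of KCNQ1ot1 lay on both sides.

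Of the transcripts named by a word, 8 were also measured by other probes of the array, found through RefSeq accessions. The Pinc probe gave 1.27, -0.84 and 1.13, Neat1 0.58, -0.79 and 0.59, and Malat1 0.80, -0.85 and 0.29. The Xist probes gave -0.27, 1.43 and -0.86, and -0.17, 1.44 and -1.10. These 4 transcripts had the sign of their lincRNA probes in each pair. Pantr1, listed in RefSeq with linc-Brn1a as a synonym, gave 0.76, 0.68 and -0.09. The Tug1 probes disagreed, with one at -0.66, 0.85 and 0.08 and the others at 0.29, -0.22 and -0.37 and at 0.32, -0.17 and 0.07. The Kcnq1ot1 probes gave -0.10, -0.16 and 0.17, and -0.09, 0.09 and 0.59, and the Nron probe 0.11, -0.11 and -0.18, which did not have the signs of the lincRNA medians in every pair.

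Region-strands with the smallest limma p and the same sign in 3 of 3 pairs are given next. None passed the adjusted threshold (adjusted p = 1.00 for each), so they are listed as values. Among the 10 higher ones, which came from 7 loci, 6 lay on 2 stretches of chromosome 1. At chr1:175705225-175717250 (R) the probe had log2 levels of 10.09, 9.51 and 8.51 in RANK-/- and 9.41, 8.52 and 7.73 in RANK+/+. Its ratios were 0.67, 0.99 and 0.79, a mean of 0.82 (SE 0.14) or 1.76-fold, and the levels of the groups overlapped although the RANK-/- RNA was the higher one in each pair.

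Beside it, at chr1:175654606-175672031 (R), the ratios were 0.49, 1.15 and 1.58 (mean 1.07, SE 0.25). The overlapping regions chr1:175660642-175671878 (R) and chr1:175653557-175671940 (R) gave 0.34, 1.33 and 1.35 and 0.38, 0.94 and 1.79, and share a locus with it, so they are not separate findings. In each of these, 1 of 3 kept probes was not higher in pair 1. Elsewhere on the chromosome, chr1:87348082-87409907 (F) gave 0.66, 0.55 and 0.53 and the overlapping chr1:87343550-87362900 (F) gave 1.56, 0.24 and 1.49. At chr1:85036677-85038530 (R) the ratios were 0.79, 0.32 and 0.49.

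Away from chromosome 1, chr2:157361470-157379813 (R) had levels of 7.82, 7.09 and 7.43 in RANK-/- and 6.96, 6.53 and 6.21 in RANK+/+, which did not overlap. Its ratios were 0.86, 0.56 and 1.22 (mean 0.88, SE 0.18). At chr7:4827340-4863315 (F) the levels of 7.58, 7.75 and 7.69 also stood above 7.06, 7.18 and 7.14, with ratios of 0.51, 0.57 and 0.55, while another probe of that region-strand gave 0.82, 0.05 and 0.67. At chr14:105497388-105511063 (F) the ratios were 0.45, 0.39 and 0.45, the smallest mean of the 10 at 0.43, while its other kept probe gave 0.22, -0.20 and 0.15.

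The 10 lower region-strands came from 10 loci. The smallest p was at chr14:115423660-115463160 (R), with levels of 7.17, 7.10 and 7.55 in RANK-/- and 7.88, 7.85 and 8.30 in RANK+/+. Its ratios were -0.71, -0.74 and -0.76 (mean -0.74, SE 0.13), but only 4 of its 10 probes were kept and another one of them gave 0.19, -0.34 and 0.48. The region chr14:115443612-115445950 (F), which lies inside it on the other strand, gave -1.15, -0.60 and -0.81 (mean -0.85, SE 0.17). The largest mean was at chr13:22110479-22116629 (R), where 1 of 5 probes was kept and gave -1.55, -1.42 and -0.55 (mean -1.17, SE 0.25) from levels of 8.66, 8.51 and 9.34 against 10.21, 9.93 and 9.89.

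The other 7 follow. At chr2:151992806-152025456 (F) the ratios were -0.66, -0.58 and -0.58, but only 4 of its 7 kept probes were lower in every pair, and others gave 0.36, -0.31 and 0.46, and 0.03, 0.06 and 0.03. At chr17:38132217-38157667 (F) the ratios were -0.46, -0.67 and -1.19. At chr11:22681800-22707775 (F), the strand opposite to one of the brightest region-strands, they were -0.41, -0.61 and -0.52. At chr5:74487385-74497428 (R) pair 1 stood out at -1.41, with -0.56 and -0.53 in the others, and another of its 4 kept probes gave -0.40, 0.11 and -0.11. The 3 that remain, chr5:149947200-149979950 (F), chr19:56820850-56837925 (F) and chr2:181650800-181669350 (R), had means of -0.54, -0.48 and -0.47.

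A stricter view asks all probes of a region-strand to point one way. Of the 795 region-strands with at least 3 kept probes, 19 had every probe higher in every pair and 21 every probe lower, together 5.03%, beside 2.73% of 659 genes outside the set with at least 3 kept probes. Probe numbers and brightness differ between the sets, and the shares were not tested. Only the 5 of largest median in each direction are named, a choice made from these same values. The largest median was at chr1:175705225-175717250 (R), whose 5 probes had median ratios of 0.49, 1.30 and 0.90. The next were chr1:175654606-175672031 (R) with 0.38, 0.91 and 1.27 over 5 probes and chr2:128137419-128141735 (R) with 0.17, 1.66 and 0.64 over 3 probes.

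At chr2:128137419-128141735 (R) the RANK-/- RNA of pair 2 was high, at a median level of 9.02, while the other 5 RNAs lay between 7.19 and 7.85. At chr11:53596919-53672731 (R) the ratios were 1.39, 0.29 and 0.35, so pair 1 carried most of the difference. All 10 probes of chr2:157361470-157379813 (R) were higher in each pair, with medians of 0.50, 0.39 and 0.90 and single probes from 0.11 to 1.22. This region-strand had the most probes of those named, with single log2 levels between 5.98 and 7.99, and its medians of 7.35, 6.85 and 7.18 in RANK-/- and 6.82, 6.46 and 6.21 in RANK+/+ did not overlap.

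Among those lower, chr14:115443612-115445950 (F) led with medians of -0.89, -0.37 and -0.75 over 3 probes. After it came chr17:38132217-38157667 (F) with -0.28, -0.49 and -0.77 over 5 of 8 probes, and chr1:139822286-139822985 (F) with -0.38, -0.21 and -0.87 over 3 probes. At chr6:83541250-83560425 (F) the levels of 9.72, 9.69 and 9.64 in RANK-/- all lay below 10.10, 10.07 and 10.15 in RANK+/+, and the ratios were -0.32, -0.44 and -0.69. The last of the 5 named, chr16:34524589-34573439 (R), gave -0.29, -0.45 and -0.65.

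**Figure D4:**
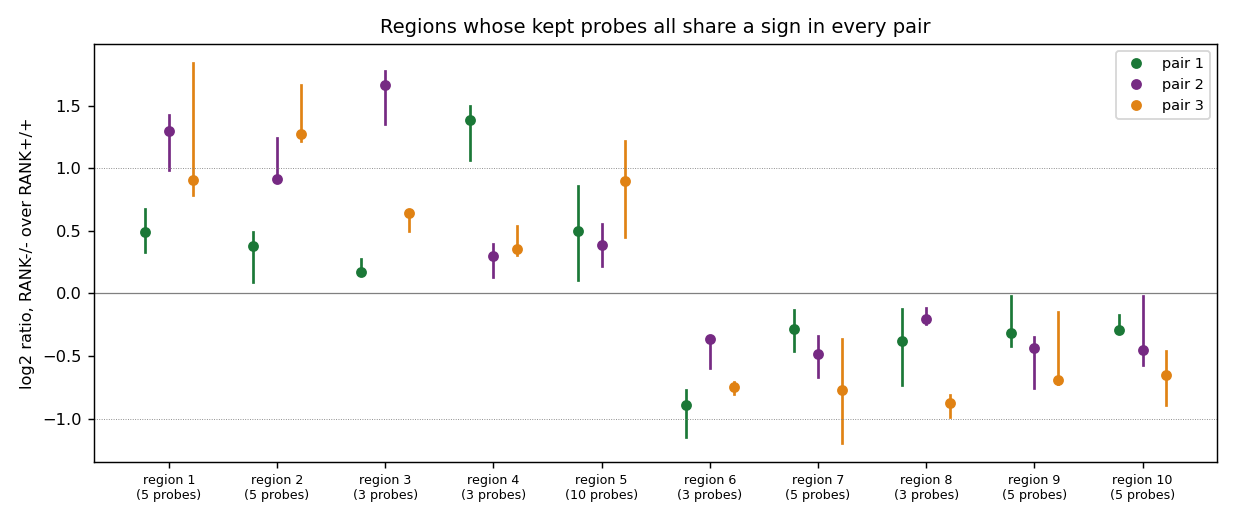
Log2 ratios of RANK-/- over RANK+/+ for 10 of the region-strands whose kept probes all share a sign in every pair, in the order of the text. They are the 5 of largest median in each direction: regions 1 to 5 are higher and 6 to 10 lower in RANK-/-. Circles are medians over probes in pairs 1 (green), 2 (purple) and 3 (orange), and lines run from the lowest to the highest probe. No region-strand had medians past 2-fold (dotted lines at 1 and -1) in all 3 pairs.

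The 5 region-strands of largest SD between pairs are given next. At chr2:174088550-174109425 (R) the ratios were 0.94, 0.67 and -2.97, from levels of 7.92, 6.48 and 6.11 in RANK-/- and 6.98, 5.81 and 9.08 in RANK+/+, so the RANK+/+ RNA of pair 3 was the highest. All 4 kept probes showed it, with pair 3 ratios from -2.97 to -2.42. At chr8:108153471-108159672 (F) the ratios were -0.44, -2.33 and 1.74, from 1 kept probe of 5. At chr5:23195569-23218551 (R) they were -3.35, -0.30 and -0.52, with the RANK+/+ RNA of pair 1 at 11.13 and all other RNAs between 7.30 and 8.04, and 3 of its 7 kept probes lay between -3.35 and -2.26 in pair 1 while the other 4 lay between 0.10 and 0.67. The remaining 2 were chr14:105987405-106063477 (R), with 1.94, -1.23 and -0.52 from 1 kept probe of 10, and chr13:83867711-83878140 (R), with 1.55, -1.60 and -0.66. In the chr13 one, another kept probe gave 1.30, -1.52 and -0.50. The others differed, with 0.25, 0.01 and -0.20, and with -0.55, -0.06 and 0.40 from the brightest.

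Presence in 1 genotype alone was rare. Of 16251 lincRNA probes, 1 was well above background on all arrays in RANK-/- and on none in RANK+/+, and 1 the other way round. Of the 39430 other probes, 2 and 7 were so. The first lincRNA probe, in chr1:153685487-153710962 (R), was in the mean at least 1.30-fold higher in RANK-/-, with ratios of 0.07, 0.41 and 0.68. The second, in chr17:38132217-38157667 (F), was in the mean at least 1.24-fold higher in RANK+/+, with ratios of -0.14, -0.39 and -0.49. Both were picked for calls in 1 genotype alone and passed the filter through it, so their direction followed from that choice. Each bound sets the mean of the bright genotype against the lowest signal called well above background in the other, and both probes had an adjusted p of 1.00 in limma.

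Long noncoding RNA genes known by symbol and measured by other probes gave a comparison. Of 87 listed genes 48 had such a probe and 36 a kept one, and limma called 0 of the 36 at an adjusted p under 0.05 (2 at an unadjusted p under 0.05), as did the rank product with 0. They were higher in 3 of 3 pairs in 3 cases and lower in 2, with a median mean ratio of 0.01 beside 0.00 over all tested probes. The lowest mean was that of Mir17hg, the host transcript of a microRNA cluster, with ratios of -1.23, -0.67 and -0.86 (mean -0.92, SE 0.17). Dancr and Rmrp, the RNA part of an endonuclease, followed with means of -0.53 and -0.52. The highest were Morrbid, a regulator of survival in myeloid cells, with -0.04, 1.78 and 0.40, Airn, an imprinted antisense RNA, with 0.02, 1.44 and 0.12, and Pinc, given above. Malat1, Neat1, Xist, Tug1, Kcnq1ot1 and Pantr1 were also on the list. Like Pinc they are transcripts that lincRNA probes measured too, so the list was not separate from the lincRNA set. Regions named by coordinates were not matched to genes. Whether Mir17hg, Airn or other genes of the list overlap such regions was therefore not checked.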

How the data were processed

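Gene probes (control type 0) whose names begin with A_30_P were taken from 6 two-color SurePrint G3 mouse arrays. The authors scanned the arrays and extracted spots with Agilent Feature Extraction 10.7.3.1. Deposited scanner files give median signal and background intensity in each channel, with calls of well above background. Normalized log2 ratios of the authors, in a matrix of the whole series, served only as an alternative, and set against the scanner values they ran as RANK-/- over RANK+/+. Each array had 440 to 552 outlier spots and 0 saturated ones. The median Cy5 intensity was 87 to 106 over a background of 63 to 71, and the median Cy3 intensity 48 to 54 over 30 to 36.

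Signals were background-corrected by normexp (offset 50), normalized by intensity loess within arrays and by Aquantile between arrays with limma 3.58.1 in R 4.3.3 (data.table package, version 1.17.8). Outlier spots were left out, so a probe with such a spot took its pair value from the other array. Arrays A and B were averaged, and lmFit and eBayes (two-sided, Benjamini-Hochberg over all 30228 probes tested of 30231 kept) and a rank product with p by convolution (Python 3.11.15, pandas, numpy) were run over the 3 pairs. The threshold was 0.05. A kept probe had the call of well above background on arrays A and B of 2 or more pairs for 1 genotype. Levels are normalized log2 intensities per channel. The number of arrays limits the precision. Fits were tested on simulated data, in which limma over 3 pairs missed small changes and recovered more of the large ones. All 6 arrays lay on 1 slide with 1 scan date.

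The rule for the lincRNA set uses probe names alone, but the set and the lists were taken up with earlier results of these data known. Named on the chosen rule were the 10 higher and 10 lower region-strands of smallest p with 1 sign in all pairs, probes called by rank product (0), the 5 region-strands each way with at least 3 probes of 1 sign, the 5 brightest, the 5 of largest SD, transcripts named by a word, probes present in 1 genotype alone, and the 3 highest and 3 lowest known genes. Chromosome 18 was left out of the names. Symbols came from RefSeq accessions (GRCm38.p6). Alternatives covered background correction, normalization, the values used, filters, array A or B alone, the model and leaving out each pair. The methods describe dye swaps, but per the labels the dyes were the same on both arrays of each pair.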

Additional observations from a re-analysis of the deposited data

How the results depend on the processing

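No lincRNA probe was called by limma under any of the alternatives except with the 6 arrays as separate replicates, which treats technical arrays as independent and called 47 (380 of all probes). With no replicate block, the channels taken as 3 against 3 samples, limma called 0 (98 at an unadjusted p under 0.05), and a random block for the pair (correlation 0.96 between arrays A and B) gave 0 (15 of all probes). It also called 0 without any 1 of the pairs. The rank product called 0 except with Agilent's processed signals, which gave 2 lower (4 higher and 19 lower of all probes). Probes at least 2-fold the same way in all pairs numbered 1 with normexp offset 0, 1 with median centring and 11 with processed signals, beside 49, 29 and 95 of all probes. They numbered 4 to 21 (102 to 337 of all) when 1 pair was left out, which asks for 2 pairs only. The median ratio was -0.067 with median centring and -0.02 to 0.03 without 1 pair. Spread between pairs was 0.38 (other probes 0.44) with normexp offset 0, 0.48 with processed signals, 0.32 (0.41) with the series table and 0.087 (0.19) with no filter on dim probes, and 0.16 to 0.18 without 1 pair. The correlation of probes of a region ran from 0.66 to 0.73 over all its alternatives. The share of regions with signal on 1 strand alone was 16% with the positive and significant call, 42.9% and 42.3% with array A or B alone, and 48.0% to 51.1% without 1 pair. The difference in detection was -27.8 to -26.4 percentage points and that in log2 intensity -2.09 to -2.04 without 1 pair, both at p = 0.125 by the exact permutation test, the smallest that 4 RNAs allow. With both RNAs of a pair averaged, an alternative chosen after seeing the data, the detection difference was -27.2 and the intensity difference -2.07, each at p = 0.25 by the exact permutation test over 3 pairs. The difference in log2 intensity was -3.08 with plain background subtraction and -0.79 over all probes, detected or not. The 20 named region-strand probes kept their direction under every alternative. They were chosen from these data for the same sign in all 3 pairs. Leaving out a pair could therefore not turn their direction, which is no separate support. Of the 20, 16 passed only with the 6 arrays as separate replicates. Among transcripts named by a word, the mean of BRN1-A was 0.24 in the main setting and 0.53 to 1.29 under 3 alternatives. The mean of NRON was -0.01 in the main setting and lay between -0.11 and 0.10 under 4 alternatives. A slide block could not be fitted, since all arrays lay on 1 slide. Dim signal limits these results: most kept lincRNA probes lay close to background, where the offset of 50 narrows ratios.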
